A study of Drosophila melanogaster with 18 samples.

Results

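The genes br, Eip74EF and Eip75B are the classic early genes of the ecdysone response, and their transcript levels were followed in Drosophila wing discs that were fresh, starved of hormone, or cultured with steroid or insulin. They were taken by symbol, 3 genes of the 15602 in the expression table, by a rule that uses no measured value. In fresh discs br stood at 155.9 ± 8.10 FPKM (fragments per kilobase of transcript per M fragments, SD, n = 3), Eip75B at 34.5 ± 3.68 and Eip74EF at 26.5 ± 3.65. All 3 fell during 4 h without hormone, all 3 were high with 20-hydroxyecdysone (20E), and all 3 were low in insulin. Eip75B had the widest range on a log scale, from 1.80 to 59.6 FPKM, and was the only one of the 3 whose change from 4 h to 9 h in insulin passed the test.

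The discs came from wild-type OregonR larvae at 96 h after egg laying. Every cultured group was kept at 25 °C, at about 15 discs per 500 µl of Grace's medium, and 5% fetal bovine serum was present with and without added hormone. The 6 groups of 3 libraries were uncultured discs frozen after dissection, discs without hormone for 4 h, discs in 20 nM 20E for 4 h or 9 h, and discs in 5 µg/ml bovine insulin for 4 h or 9 h. There was no hormone-free culture at 9 h, and the 20E was added from an ethanol stock and the insulin from acidified water, with no solvent control named in the labels. Each library thus pools discs, and the labels name the replicates biological without saying how cultures were split.

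Ecdysone pulses time the moults and metamorphosis of the fly. The active steroid, 20E, binds a heterodimer of EcR and Ultraspiracle (usp), which switches on a small set of early genes directly, and the early gene products are transcription factors that control the later genes and the early genes themselves. They were first seen as chromosome puffs in larval salivary glands, and the numbers in the names Eip74EF and Eip75B are puff positions. The gene br (broad, or the Broad-Complex) encodes a family of zinc finger proteins with a BTB domain that is needed for larval tissues and discs to enter metamorphosis. Eip74EF encodes ETS-domain proteins, and Eip75B encodes haem-binding nuclear receptors related to the mammalian Rev-Erb proteins. In discs, Broad is known for its part in eversion of the appendage.

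Each value is the sum over a gene, so the alternative promoters and isoforms for which all 3 genes are known could not be told apart. In the Ensembl 115 annotation (BDGP6.54, a later assembly than the BDGP5 named in the submitters' processing notes, so that no coordinates are given) br lies on chromosome X with 16 transcripts from 9 start sites. Eip74EF has 5 transcripts from 3 start sites and Eip75B 7 transcripts from 7 start sites, both on the minus strand of chromosome 3L. The table lists br as FBgn0000210, Eip74EF as FBgn0000567 and Eip75B as FBgn0000568, and the annotation carries br under FBgn0283451. Only 3 of the genes that overlap them in the annotation are in the table. All 3 lie on the opposite strand and were low: Mur2B, which overlaps br, reached 1.09 FPKM, and CG32192 and CG42393, which overlap Eip75B, reached 0.0805 and 0.243 FPKM. Eip75B is also overlapped by 2 annotated genes on its own strand, which have no values here, so their part in its FPKM could not be read.

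The libraries held an estimated 28.15 to 38.1 M fragments, read from the regular steps of low values, and between 7847 and 8190 genes at 1 FPKM or more. All 11 wing disc markers were above 1 FPKM in every library. Summed haemocyte markers lay between 0.247 and 2.50 FPKM, fat body markers reached at most 1.06 and salivary gland markers at most 0.641 (1 of 5 at 0 everywhere). Summed midgut markers differed between replicates: they stood at 11399.9 FPKM in uncultured replicate 2 and 793.5 in no hormone replicate 1, against 2.53 and 1.61 in the other uncultured libraries and 3.28 and 17.9 in the other no hormone libraries. Changes of the early genes against either group are given with and without these 2 libraries where they differ most. Summed wing disc markers moved with 20E, from between 549.6 and 579.1 FPKM without hormone to between 696.0 and 736.3 at 4 h and between 746.4 and 826.5 at 9 h. Summed tracheal markers went the same way, from between 21.8 and 23.1 FPKM without hormone to between 26.5 and 28.3 at 4 h and between 29.4 and 32.9 at 9 h of 20E. The part of either in the results was not tested. Whole discs were sequenced, so a lower level can be fewer cells that express a gene or less RNA in each cell, and these cannot be told apart.

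**Figure D1:**
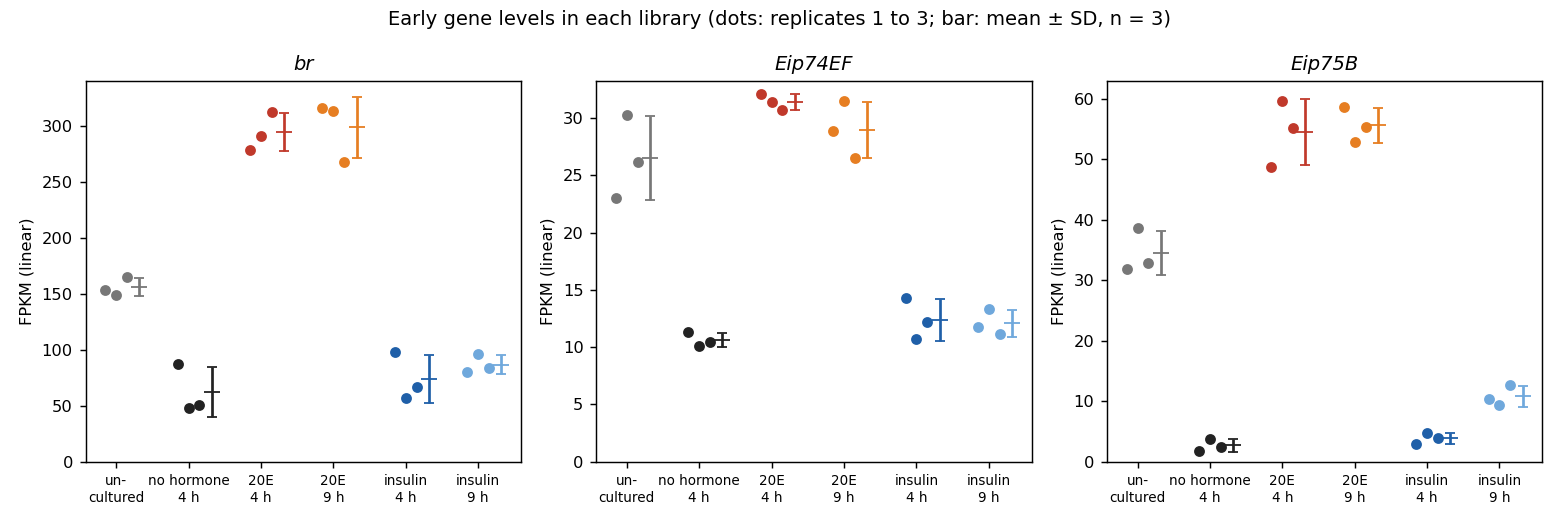
FPKM of br, Eip74EF and Eip75B (linear axes from 0) in the 6 groups. Dots are replicates 1 to 3 from left to right, and the bar beside them is the mean ± SD (n = 3). Both 20E groups stand highest for br and Eip75B, and the no hormone and insulin groups stand below the uncultured discs in all 3 panels.

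The early genes were first compared between fresh discs and discs held for 4 h in hormone-free medium. The br libraries stood at 153.5, 149.2 and 164.9 FPKM when fresh and at 87.6, 48.1 and 50.3 without hormone. The groups did not overlap, as was the case for 73.2% of tested genes, and no hormone replicate 1 lay well above the other replicates of its group. The change was -1.37 ± 0.20 on the log2(FPKM + 1) scale (SE, limma adjusted p = 2.31e-05, with calls made at an adjusted p under 0.05), and the mean went to 39.8% of the fresh level. Without uncultured replicate 2 and no hormone replicate 1 together, the change of br was -1.67 (adjusted p = 4.51e-06).

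Eip74EF went from 23.0, 30.3 and 26.2 FPKM to 11.3, 10.1 and 10.5 FPKM, with no overlap. This was a change of -1.23 ± 0.10 (SE, limma adjusted p = 6.34e-08), or 40.1% of the fresh mean, and it was -1.18 without those 2 libraries. Eip75B went from 31.9, 38.7 and 32.9 FPKM to 1.80, 3.79 and 2.45 FPKM. Its highest library without hormone was far below its lowest fresh library. Eip75B changed by -3.30 ± 0.18 (SE, limma adjusted p = 4.19e-10), to 7.78% of the fresh mean, and by -3.04 without the same 2 libraries. Among the 8524 tested genes 35.5% were lower, so that falls were common in this comparison. Ordered by the size of the fall, Eip75B came 25th, with a mean FPKM 12.9-fold lower, Eip74EF 421st and br 317th.

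The effect of the steroid was read against hormone-free culture of the same length, which shares its control libraries with the comparison above. In 20E at 4 h br stood at 278.4, 291.0 and 312.0 FPKM, above every library that had no 20E. Against no hormone, br rose by 2.28 ± 0.20 (SE, limma adjusted p = 9.22e-07), a 4.74-fold difference in mean FPKM. Without no hormone replicate 1 the rise of br was 2.55. Eip74EF stood at 32.1, 31.4 and 30.7 FPKM, the tightest group of any member (coefficient of variation 2.26%). It rose by 1.48 ± 0.10 (SE, limma adjusted p = 8.67e-08), or 2.96-fold in mean FPKM. Eip75B stood at 48.7, 59.6 and 55.2 FPKM and rose by 3.95 ± 0.18 (SE, limma adjusted p = 8.51e-10), a 20.3-fold difference in mean FPKM. Without no hormone replicate 1 the rise of Eip75B was 3.77 on the log2 scale. None of the 3 overlapped between the groups, as was the case for 43.0% of tested genes. Among all tested genes 15.7% were higher in this comparison, and the rise ranked 6 of 8524 for Eip75B, 38 for br and 99 for Eip74EF.

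Insulin at 4 h did not pass the test for any of the 3 genes against no hormone, although 57.9% of tested genes did. The fit did not pair libraries by replicate number. For each of the 3 genes insulin lay above no hormone in 3 of 3 same-numbered pairs, so an absence of response cannot be read from this. In insulin br stood at 97.9, 56.5 and 66.9 FPKM, which overlaps the no hormone libraries, and differed by 0.26 ± 0.20 (SE, 95% interval -0.17 to 0.70, limma adjusted p = 0.282). Without no hormone replicate 1, br differed by 0.54 (adjusted p = 0.0132), the only one of the alternatives that left out a single library to give br a call here. Over all alternatives the adjusted p of br lay between 0.0132 and 0.87. Eip74EF, at 14.3, 10.7 and 12.2 FPKM, differed by 0.20 ± 0.10 (95% interval -0.03 to 0.42, limma adjusted p = 0.123). Its adjusted p lay between 0.0223 and 0.457 over the alternatives. Eip75B, at 2.90, 4.78 and 3.90 FPKM, differed by 0.42 ± 0.18 (95% interval 0.04 to 0.79, limma adjusted p = 0.0543). The call for Eip75B hung on the processing, with adjusted p between 0.00429 and 0.261 over the alternatives. The upper ends of these intervals, 0.70, 0.42 and 0.79, lay below the lower ends of the intervals for 20E against no hormone, 1.85, 1.26 and 3.57 for br, Eip74EF and Eip75B.

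Set against each other at matched times, 20E gave more of all 3 transcripts than insulin. At 4 h the difference on the log2(FPKM + 1) scale was 2.02 ± 0.20 for br, 1.28 ± 0.10 for Eip74EF and 3.53 ± 0.18 for Eip75B (SE, limma adjusted p = 1.05e-06, 1.47e-07 and 1.28e-09), with 27.6% of tested genes higher. At 9 h it was 1.77 ± 0.20 for br, 1.20 ± 0.10 for Eip74EF and 2.27 ± 0.18 for Eip75B (limma adjusted p = 4.82e-06, 3.4e-07 and 1.03e-07), with 26.6% of tested genes higher. The 4 groups also allow an exact permutation test, two-sided, in which hormone labels were exchanged within each time (6 libraries against 6, 400 relabellings). For br the mean difference over both times was 1.89, for Eip74EF 1.24 and for Eip75B 2.90. In the exact permutation test each gave p = 0.005 and an adjusted p of 0.005 over 6 tests, the smallest value it can give.

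The 3 genes differed in the size of this response. The difference between 20E and insulin was larger for Eip75B than for br by 1.00, larger for Eip75B than for Eip74EF by 1.66, and larger for br than for Eip74EF by 0.65, taken within libraries on the log2(FPKM + 1) scale. The exact permutation test gave p = 0.005 and adjusted p = 0.005 for each of these, the smallest it can give. The ratio of Eip75B to Eip74EF in FPKM was 1.39, 1.28 and 1.26 in the fresh libraries and 0.159, 0.377 and 0.233 without hormone. In 20E at 4 h it was 1.52, 1.90 and 1.80, and in insulin at 4 h 0.203, 0.448 and 0.319. Fresh discs and 20E cultures had more Eip75B than Eip74EF per length of transcript in every library, and the other 4 h cultures had less. In insulin at 9 h the ratio was 0.881, 0.702 and 1.14, astride equality. The ratio of br to Eip74EF lay between 8.67 and 10.9 in the 20E libraries and between 4.78 and 7.74 in the others, with no hormone replicate 1 at the top of these.

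**Figure D2:**
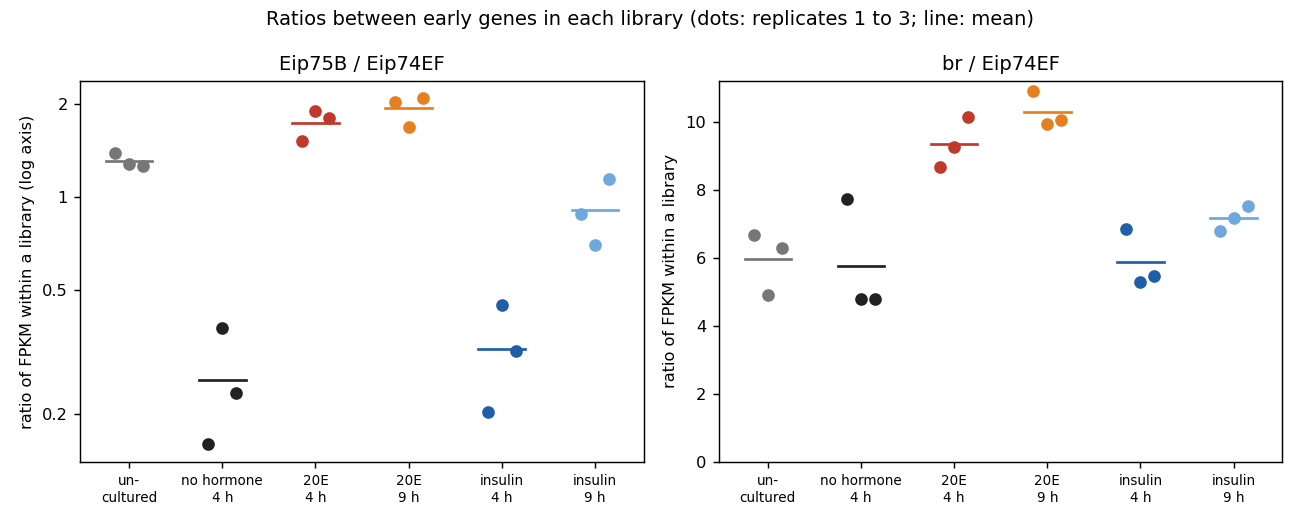
Ratio of FPKM between members within each library, for Eip75B over Eip74EF (left, log axis) and br over Eip74EF (right, linear axis from 0). Dots are replicates 1 to 3 from left to right and lines are group means. On the left, the no hormone and insulin 4 h libraries lie between 0.159 and 0.448 and the 20E libraries between 1.52 and 2.08.

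Time in culture separated the members again. In 20E the br libraries at 9 h stood at 315.3, 312.6 and 267.1 FPKM, Eip74EF at 28.9, 31.5 and 26.5, and Eip75B at 58.7, 52.9 and 55.2. All 3 overlapped their 4 h libraries. The change from 4 h to 9 h was 0.02 ± 0.20 for br (95% interval -0.41 to 0.45, limma adjusted p = 0.961), -0.12 ± 0.10 for Eip74EF (-0.34 to 0.11, adjusted p = 0.465) and 0.03 ± 0.18 for Eip75B (-0.34 to 0.41, adjusted p = 0.927). Of all tested genes, 22.9% were called in this comparison. No decline of the early genes was detected between these times in medium that was given 20E at the start.

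In insulin br at 9 h stood at 79.8, 96.0 and 84.0 FPKM and Eip74EF at 11.7, 13.4 and 11.1, neither called against 4 h (limma adjusted p = 0.317 and 0.844). Eip75B stood at 10.3, 9.37 and 12.7 FPKM. Its lowest library at 9 h was above its highest at 4 h, and such a gap was seen for 54.6% of tested genes. It rose by 1.29 ± 0.18 (SE, limma adjusted p = 5.25e-05), 2.80-fold in mean FPKM, with 21.3% of tested genes higher. The change of Eip75B with time differed between the hormones by -1.26 ± 0.25 (20E minus insulin, limma adjusted p = 0.00225), with 13.0% of tested genes called in that direction. Neither br (-0.24 ± 0.29, adjusted p = 0.574) nor Eip74EF (-0.09 ± 0.15, adjusted p = 0.71) was called for this difference. Without a hormone-free culture at 9 h, the rise of Eip75B in insulin and a rise with culture time cannot be told apart. Between the same groups summed tracheal markers went from between 21.0 and 23.7 to between 26.1 and 28.7 FPKM and summed disc myoblast markers from between 47.6 and 51.8 to between 59.2 and 62.5 FPKM, and their part in the rise of Eip75B was not tested.

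Against fresh discs, br and Eip75B were higher in 20E and all 3 genes were lower in insulin. In 20E at 4 h br was higher by 0.91 ± 0.20 (limma adjusted p = 0.00103) and Eip75B by 0.65 ± 0.18 (adjusted p = 0.00451), against 34.2% of tested genes higher. At 9 h br was higher by 0.93 ± 0.20 (adjusted p = 0.000787) and Eip75B by 0.68 ± 0.18 (adjusted p = 0.00295), against 36.9%. Their means were 191.4% and 161.2% of the fresh level at 9 h. Eip74EF in 20E was close to its fresh level, at 118.5% at 4 h (0.25 ± 0.10, 95% interval 0.02 to 0.47, limma adjusted p = 0.051) and 109.3% at 9 h (0.13 ± 0.10, -0.09 to 0.35, adjusted p = 0.282). At 4 h Eip74EF did not overlap the fresh libraries, as 70.6% of tested genes did not, and its adjusted p lay between 0.0115 and 0.233 over the alternatives.

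In insulin all 3 were below fresh discs at both times, where 26.7% of tested genes were lower at 4 h and 33.2% at 9 h. At 9 h br stood at 55.5%, Eip74EF at 45.6% and Eip75B at 31.3% of the fresh mean. Eip75B was at 11.2% at 4 h. By group mean, the order for br and for Eip75B was 20E at 9 h, 20E at 4 h, uncultured, insulin at 9 h, insulin at 4 h and no hormone. Neighbours that overlapped were both 20E groups, and insulin at 4 h with no hormone. For br both insulin groups overlapped too. For Eip74EF the order was 20E at 4 h, 20E at 9 h, uncultured, insulin at 4 h, insulin at 9 h and no hormone. Its upper 3 groups overlapped from one to the next, as did its lower 3.

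**Figure D3:**
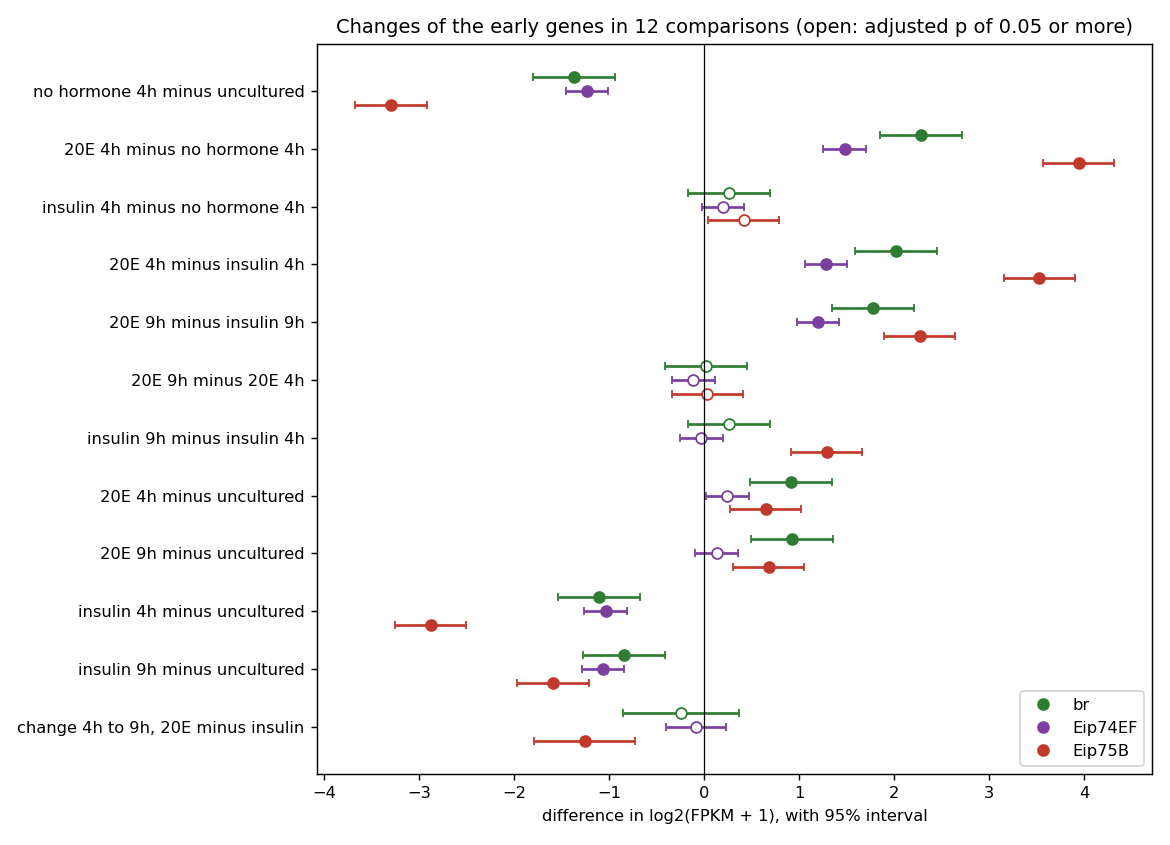
Differences of br (green), Eip74EF (purple) and Eip75B (red) in the 12 comparisons on the log2(FPKM + 1) scale, with 95% intervals from the limma fit. Filled dots have an adjusted p under 0.05. Eip75B lies farthest from 0 in every comparison of 20E with insulin or no hormone, and the last line shows the called difference of -1.26 for Eip75B.

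Replicates without hormone and in insulin at 4 h differed in br more than those of other groups. The coefficient of variation was 35.8% without hormone and 29.2% in insulin at 4 h, against 5.20% to 9.69% in the other groups, insulin at 9 h among them. In both of these groups the order of replicates by br was the reverse of the order by Eip75B. Without hormone, replicate 1 had the most br (87.6 FPKM) and the least Eip75B (1.80), and replicate 2 the least br (48.1) and the most Eip75B (3.79). In insulin at 4 h replicate 1 again had the most br (97.9) and the least Eip75B (2.90), and replicate 2 the least br (56.5) and the most Eip75B (4.78). The same reversal held between br and chinmo, which encodes a BTB zinc finger protein known to oppose Broad in the larval to pupal switch. In these groups chinmo stood at 38.0, 70.3 and 49.5 FPKM (no hormone) and 31.4, 56.8 and 43.8 FPKM (insulin at 4 h). Neither Eip75B nor chinmo had the reverse of the br order in the remaining groups. The order was not particular to these genes. Without hormone and in insulin at 4 h, Eip74EF followed the order of br. So did ImpE1, ImpE2, ImpE3, ImpL1, ImpL3, Eip71CD, Sb and crol among the tested pathway genes described below. Of the same genes tai, ftz-f1, Hr39, rig and Eip55E reversed it in both groups, as chinmo did, and the rest did neither in both. Summed midgut markers were highest in replicate 1 without hormone but lowest in replicate 1 of insulin at 4 h (1.66 FPKM, against 230.1 and 139.8). Haemocyte and disc myoblast markers followed the order of br in both groups. Summed haemocyte markers stood at 2.50, 0.329 and 0.577 FPKM without hormone and 1.34, 0.260 and 0.361 in insulin at 4 h. Summed myoblast markers stood at 53.4, 48.4 and 51.6 FPKM and at 51.8, 47.6 and 50.7 FPKM. With 3 libraries a group these orders were not tested, nor was their cause.

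**Figure D4:**
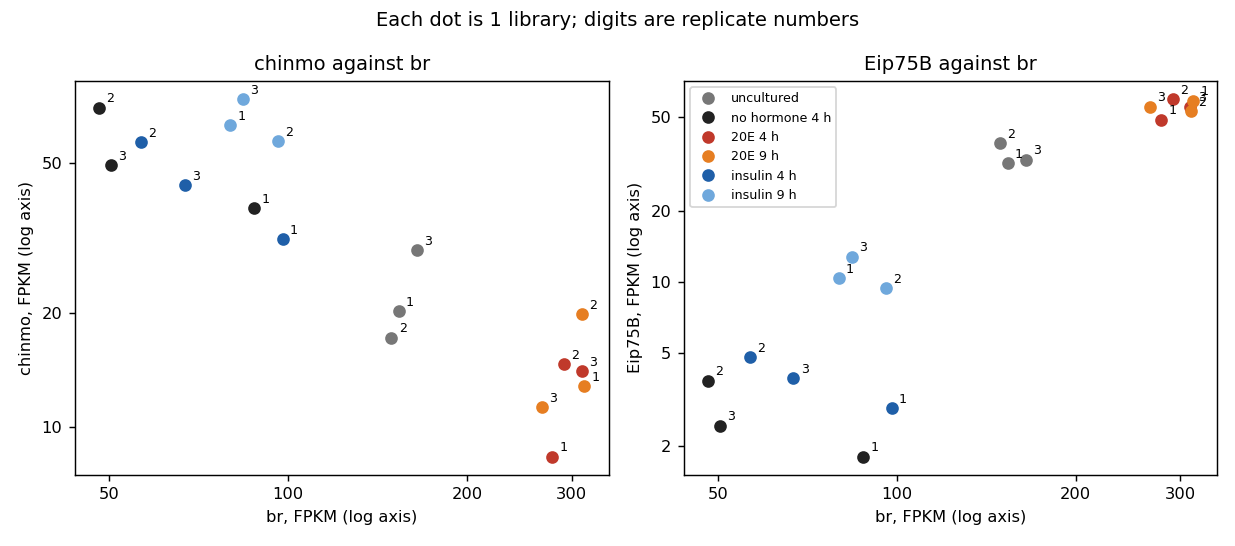
FPKM of chinmo (left) and Eip75B (right) against br in each of the 18 libraries, all axes logarithmic, with colours for the groups and digits for replicate numbers. The no hormone and insulin 4 h libraries run from upper left to lower right within their group in both panels, with replicate 1 at the high br end.

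The early genes were set beside 34 other genes of the ecdysone pathway, written by name. Of these 32 were in the table and 24 passed the filter of at least 1 FPKM in at least 3 libraries. Kr-h1 and Smr were not analysed here. The genes below the filter were DopEcR, shd, Hr46 (the early-late receptor Hr3), Hr4, Hr38, Hr51, Eip93F and Fbp1, none of which reached 0.82 FPKM in any library. Eip93F (E93), a factor of the adult programme, reached 0.156 FPKM and Hr46 0.342 FPKM.

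Without hormone, 7 of the 24 were higher and 9 lower than in fresh discs (median -0.09, against -0.00 over all tested genes, 35.1% higher and 35.5% lower). With 20E for the same time, 10 of the 24 rose and 7 fell relative to no hormone (median 0.13, against -0.01 over all tested genes, 15.7% higher and 15.0% lower). With insulin it was 6 that rose and 3 that fell (median 0.14, against 0.01, 30.3% higher and 27.6% lower). The filter can pass a gene through the group in which it is high, so these counts are descriptions. Without the libraries highest in midgut markers the calls numbered 12, 17 and 9 in these 3 comparisons.

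Among the receptor and its partners, EcR fell from 92.0 ± 3.64 to 46.2 ± 2.33 FPKM with 20E (-0.98 ± 0.06), usp, its dimer partner, stood at 41.4 ± 2.99 and 43.4 ± 0.733 FPKM, which was not called (0.07 ± 0.05), and tai, the gene of a receptor coactivator, rose by 0.58 ± 0.07. Oatp74D, the importer that carries ecdysone into cells, fell from 52.6 ± 5.48 to 40.9 ± 0.613 FPKM (-0.35 ± 0.06). All values are FPKM with SD (n = 3) or log2 differences with SE, and all calls here have a limma adjusted p under 0.05. Cyp18a1, which inactivates 20E, rose from 0.0999 ± 0.0654 to 2.96 ± 1.67 FPKM (1.74 ± 0.28, adjusted p = 0.000305). The pair EcR and Eip75B thus moved in opposite directions with 20E. Neither gene overlapped between the groups, as was the case for 43.0% of tested genes.

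Among the other hormone-responsive regulators, Eip78C, a nuclear receptor gene related to Eip75B, rose by 1.72 ± 0.19, Hr39, another nuclear receptor gene, by 1.14 ± 0.09 and Blimp-1, a repressor that times ftz-f1, by 1.28 ± 0.21 (SE, limma adjusted p = 9.1e-06, 4.65e-07 and 0.000347). Blimp-1 and Eip78C stayed low, at 1.53 ± 0.702 and 2.81 ± 0.597 FPKM, against 54.5 ± 5.46 for Eip75B. The gene chinmo fell by 2.00 ± 0.29 on the log2 scale (adjusted p = 0.000102), from 52.6 ± 16.3 to 12.3 ± 3.49 FPKM. From 4 h to 9 h in insulin, where Eip75B rose, Hr39 rose as well (0.37 ± 0.09, adjusted p = 0.00569), whereas vri (-0.78 ± 0.17, adjusted p = 0.00181) and ImpE1 (-0.66 ± 0.19, adjusted p = 0.0117) fell, and br, Eip78C (-0.07 ± 0.19, adjusted p = 0.797) and Blimp-1 (0.01 ± 0.21, adjusted p = 0.965) were not called. Of the 24 pathway genes 7 were higher and 4 lower there, against 21.3% and 23.3% of all tested genes. At 4 h insulin had raised Hr39 (0.45 ± 0.09), vri (0.47 ± 0.17) and ImpE1 (0.70 ± 0.19) against no hormone (limma adjusted p = 0.000781, 0.0271 and 0.00541). Eip78C and Blimp-1 were not called in that comparison.

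Genes first found as ecdysone-inducible in discs moved both ways with 20E at 4 h. ImpE1 stood at 0.935 ± 0.300 FPKM without hormone and 30.5 ± 9.80 in 20E (SD, n = 3), and rose by 3.98 ± 0.19 (SE, limma adjusted p = 1.7e-09). ImpE2, known for its part in disc eversion, rose by 4.85 ± 0.75 (adjusted p = 0.000201) with a wide spread, from 129.0 to 430.1 FPKM in 20E. ImpL2, whose product binds insulin-like peptides, rose by 1.40 ± 0.26 (adjusted p = 0.000796), and ImpL1 fell by 1.68 on the log2 scale (adjusted p = 0.000147). The rise of ImpL2 against no hormone was larger in insulin at 4 h (4.76 ± 0.26), and in 20E at 4 h ImpL2 was below fresh discs (-2.01 ± 0.26). The clock gene vri went from 1.27 ± 0.0663 to 47.7 ± 6.71 FPKM (4.41 ± 0.17, adjusted p = 1.46e-10), and ftz-f1, a receptor gene known to be expressed as the hormone falls, from 44.8 ± 3.12 to 10.2 ± 1.25 FPKM (-2.04 ± 0.10, adjusted p = 1.63e-09).

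**Figure D5:**
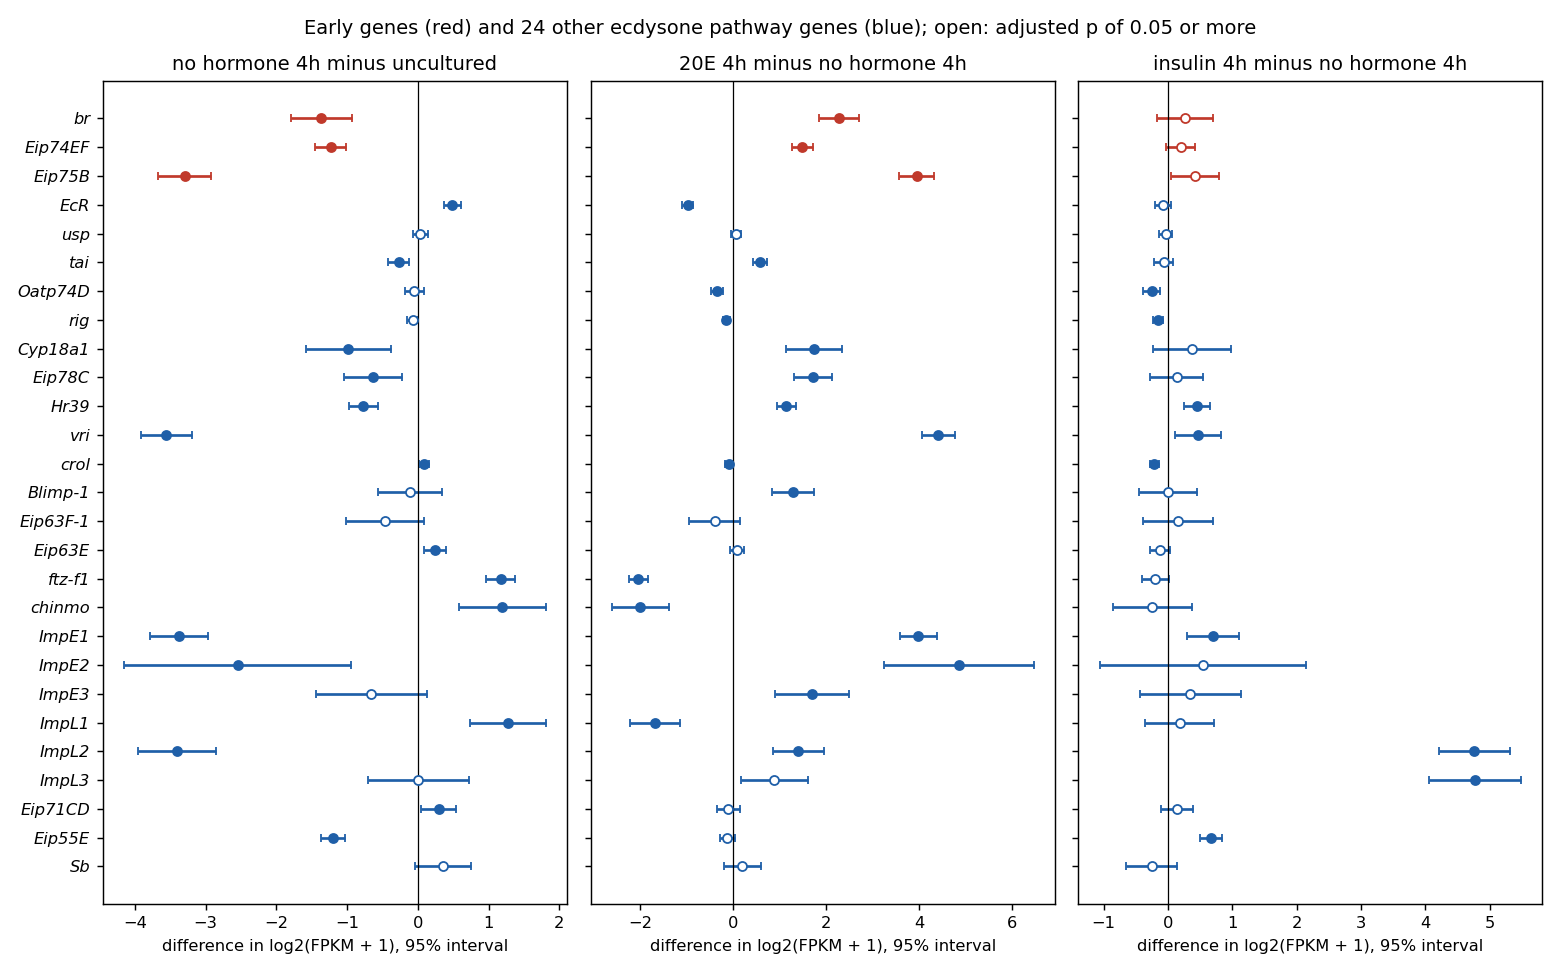
Differences on the log2(FPKM + 1) scale with 95% intervals for the 3 early genes (red) and 24 other pathway genes (blue) in 3 comparisons, which share the no hormone libraries. Filled dots have an adjusted p under 0.05. The horizontal scales differ between panels. Eip75B, vri, ImpE1 and ImpE2 lie farthest to the right in the 20E panel, and ftz-f1, chinmo and ImpL1 farthest to the left.

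The genes with the most similar profile were found by the root mean square difference of log2(FPKM + 1) over the 18 libraries, after each gene's mean was removed, among 7324 genes. For br, whose own SD over the libraries was 0.98, they were CG11905 (0.238), CG11509 (0.259), Ppn (0.289), Cht3 (0.299) and CG4914 (0.352). CG11509 (FBgn0029584) is absent from the Ensembl 115 annotation, and the RefSeq gene table lists CG11509 as a synonym of br. The table may therefore hold what is now 1 gene on 2 lines, with br at 293.8 ± 17.0 and CG11509 at 25.4 ± 2.80 FPKM in 20E at 4 h. For Eip74EF (SD 0.65) the nearest were brat (0.137), gk (0.205), dmGlut (0.211), tld (0.224) and mam (0.225). For Eip75B (SD 1.67) they were CG14598 (0.665), nmo (0.718), ImpE1 (0.737), CG11905 (0.739) and Pdk1 (0.752). The gap to the nearest gene was wider for Eip75B than for br or Eip74EF. CG11905 was on the lists of both br and Eip75B, at 2.62 ± 0.784 FPKM without hormone and 21.7 ± 3.70 in 20E at 4 h (SD, n = 3).

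Tested genes beside the early genes on the chromosome were read in the same comparison of 20E with no hormone at 4 h. Of the 10 nearest tested genes of each member, 5 on each side, 1 of 10 was higher in 20E than without hormone for br, 0 of 10 for Eip74EF and 1 of 10 for Eip75B. The lower counts were 1, 1 and 4. For Eip74EF, its flanking genes CycT and Vps60 differed by 0.13 and -0.07 (adjusted p = 0.105 and 0.377). CG5290, the nearest tested gene on 1 side of Eip75B, fell by 2.23 on the log2 scale in culture without hormone (adjusted p = 5.87e-10) but differed by 0.19 in 20E (adjusted p = 0.286). Eip74EF and Eip75B are 331.6 kb apart, and of the 23 tested genes between them 6 (26.1%) were higher in 20E and 3 lower, against 15.7% and 15.0% of all tested genes.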

How the data were processed

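RNA sequencing of poly(A)-selected RNA from wing discs was made with a strand-specific kit, per the labels' protocols. The authors deposited FPKM per gene and replicate. The tools cutadapt, TopHat2 and Cufflinks and the build BDGP5 come from the submitters' processing notes; versions, annotation, strand setting and filters are not given in the sources used here. FPKM summed to 829275 to 918429 per library. Depth was estimated from steps of low values of genes with 1 transcript of at least 1000 nt (86.8% to 91.2% within 0.1 of a whole fragment, 20% by chance, in part because the depth was fitted to them) and entered no test. By that estimate and its shortest transcript, Eip75B had at least 205 fragments in any library.

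Columns were matched to samples by the column names in the sample descriptions. The 8524 genes that reached 1 FPKM in 3 or more libraries were analysed as log2(FPKM + 1), which understates changes of low genes, with limma 3.58.1 in R 4.3.3 (group only, all 18 libraries, mean-variance trend). Its two-sided p-values received Benjamini-Hochberg adjustment over the tested genes of a comparison, for 12 comparisons, with calls at 0.05. Alternatives were array weights, a replicate block, quantile normalization, rescaling by median ratios, another pseudocount (0.1), fits to the compared groups alone, looser and stricter filters (none, or mean FPKM of 5 and over) and leaving out each library. With 3 libraries against 3 an exact test of a single gene cannot go below p = 0.1. The labels name the replicates biological but give no batch. Members, gene lists and the naming rule (members, listed genes and the 5 nearest profiles) were chosen with earlier results of these data known; chinmo and neighbouring genes were singled out after their values were seen. Of the identifiers, 14925 were found in Ensembl 115. No genome sequence was used.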

Additional observations from a re-analysis of the deposited data

Results flagged for a closer look

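The change of Eip75B from 4 h to 9 h differed between the hormones by -1.26 on the log2(FPKM + 1) scale (20E minus insulin, limma adjusted p = 0.00225), because Eip75B rose from 3.86 ± 0.938 to 10.8 ± 1.74 FPKM in insulin (SD, n = 3) and stood at 54.5 ± 5.46 and 55.6 ± 2.90 FPKM in 20E. Every library of insulin at 9 h was above every library of insulin at 4 h for this gene, and 54.6% of tested genes did not overlap between these groups. Over 20 alternatives the difference lay between -1.45 and -1.11 with adjusted p between 0.000121 and 0.00672.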

How the results depend on the processing

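Every member call in the 12 comparisons kept its direction and its side of the threshold under the alternatives tried, and the changes below concern values that were not called. Eip75B in insulin against no hormone at 4 h became called with a pseudocount of 0.1 (0.54), a mean of at least 5 FPKM (0.42), the replicate block (0.42) and array weights (0.37). When 1 library was left out it ranged from 0.24 to 0.63 and was called in 2 of 6 fits. In the same comparison Eip74EF was called with array weights (0.20). Without single libraries it ranged from 0.10 to 0.29 and was called in 1 of 6 fits. Under the same omissions br ranged from 0.043 to 0.54 and was called in 1 of 6 fits. Without both libraries high in midgut markers, an alternative added after seeing the data, br was 0.54. Eip74EF in 20E at 4 h against fresh discs became called with a mean of at least 5 FPKM (0.25), quantile normalization (0.25) and array weights (0.24). Without single libraries it ranged from 0.15 to 0.34 and was called in 1 of 6 fits. It was 0.34 without both midgut-high libraries. Over all alternatives other than leaving out 1 library, 10 of 309 member values became called. Small changes with time reversed without single libraries: br (-0.022 to 0.097) and Eip75B (-0.046 to 0.097) in 20E, Eip74EF in insulin (-0.12 to 0.070) and the hormone difference of Eip74EF (-0.19 to 0.0090). Genes called from 4 h to 9 h in 20E numbered 1127 with only the groups compared and 3606 with array weights (1951 in the main result), and those for the difference between hormones 3719 with array weights (2261). Pathway members called from 4 h to 9 h in 20E were 3 with quantile normalization and 10 with array weights (5 in the main result). The exact permutation tests gave adjusted p under 0.05 in all 24 results of other settings and all 72 results without a library, counted over the 6 quantities. The highest was 0.0312 for each quantity, when hormones were exchanged within replicate number and time. That is the smallest value this exchange can give. The deviations of all tested genes showed little pairing by replicate number, which does not exclude a pairing that touches fewer genes. Of 45 same-numbered pairs 8 correlated above 0.1 (median -0.0008), and 7 of 18 libraries correlated best with their own number. No hormone and insulin at 4 h gave -0.174, -0.0008 and 0.0952. Within these groups each early gene had its replicates in the same order, with br deviating by 0.55, -0.31 and -0.24 without hormone and by 0.44, -0.34 and -0.10 in insulin. The replicate block called Eip75B in insulin against no hormone at 4 h (limma adjusted p = 0.0329) and moved no other member call. That block fits the same replicate effect in all 6 groups, so it cannot fully remove an order shared by only some groups. It therefore does not decide whether such an order hides a difference of br or Eip74EF. In 3 of 3 same-numbered pairs insulin at 4 h was above no hormone for each of the 3 early genes. Neither rescaling moved the median of all genes by over 0.1. The causes of these shifts were not tested.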
